A study of Rattus norvegicus with 15 samples.

Results

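The genes described here make and duplicate DNA in S phase, the part of the cell cycle in which the genome is copied. They are a list of 44 genes chosen by function: the loading and activation of the replicative helicase, the polymerases and primase, the sliding clamp and its loader, the maturation of the lagging strand, the single-strand binding protein RPA, the supply of nucleotides, and 4 regulators. All transcripts of a gene in the deposited table were summed, and a gene was kept when its mean over the libraries reached 0.5 FPKM (mapped fragments scaled for transcript length and for library size). By this rule 43 of the 44 genes were found and kept, of 17895 genes that passed the same filter and 37367 in the table. E2f1 was not analysed here.

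The table came from primary cultures of brain microvascular endothelial cells (BMECs) of Sprague Dawley rats, taken from 6 littermates of both sexes aged 2 to 3 weeks. The 15 libraries fall into 5 groups of 3: unexposed controls, labelled as a 12 h culture without radiation, and 4 exposed groups, given 5 Gy or 20 Gy by x-ray and harvested at 12 h or at 24 h. The labels name no genetic change in any group. All cells grew to 60% confluence before exposure, and the study calls the 3 libraries of a group biological replicates without saying which animal or dish each came from, so the p-values measure the spread between these libraries. No unexposed culture at 24 h was analysed here, so the time since exposure and the time in culture cannot be told apart, and the 4 comparisons with control share the same 3 control libraries.

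Before a cell enters S phase, the origin recognition complex, CDC6 and CDT1 load the MCM2-7 helicase on DNA, and CDC45 and the GINS complex then switch it on. Polymerase alpha and its primase start each new strand, polymerases delta and epsilon extend it on the PCNA clamp, and FEN1 and DNA ligase I join the pieces of the lagging strand. Many of these genes are switched on together by E2F transcription factors, which the retinoblastoma protein holds back outside S phase, and the p53 target p21, made from Cdkn1a, keeps the retinoblastoma protein active after DNA damage. Dividing cells therefore hold far more of these RNAs than resting ones, and since each library pools many cells, fewer cells in S phase and less RNA per cell cannot be told apart here.

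Libraries held between 5.44 and 7.49 gigabases of aligned sequence, as recovered from the steps between FPKM values, with the lowest in replicate 2 of 5 Gy at 24 h. The median over libraries of the reads behind a gene ran from 45.5 equivalents of a 150-base read for Pole2 to 2766 for Rpa1. Several defining markers of endothelium were listed near 0. Of 15 endothelial markers, 5 reached a mean of 0.5 FPKM (Kdr, Flt1, Egfl7, Eng and Slc2a1). The endothelial markers summed to 26.3 to 41.8 FPKM in the controls. Their sum was 17.9 to 34.3 and 18.8 to 24.5 at 12 h after 5 and 20 Gy, and 22.6 to 32.5 and 22.2 to 24.3 at 24 h. Cdh5, Cldn5, Vwf, Tie1 and Erg had means of 0.0763, 0.0043, 0.0364, 0 and 0.0245 FPKM, and Pecam1 was not analysed here. Hspa8, a chaperone that every cell uses, was also listed at 0 in all 15 libraries, so a listed 0 can be a failed estimate. All 8 fibroblast markers reached 0.5 FPKM, and their summed level was 2271 to 2572 FPKM in the controls, 2087 to 2200 and 1768 to 2061 at 12 h after 5 and 20 Gy, and 865 to 940.2 and 809.9 to 961 at 24 h. Of the other markers, 5 of 9 for pericytes and smooth muscle, 4 of 6 for astrocytes, 3 of 6 for neurons, 1 of 7 for microglia and 1 of 7 for oligodendrocytes reached 0.5 FPKM.

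Replication genes fell together in every exposed group. A gene is counted as higher or lower, or as passing the test, when its Benjamini-Hochberg adjusted p from limma was below 0.05 and its fold change, on log2(FPKM + 1), was at least 1.5. On this scale the changes of low genes are understated. At 12 h after 5 Gy, 34 of the 43 genes were lower than control and 0 were higher, where 4.96% of all genes tested were lower. After 20 Gy at 12 h, 28 were lower and 0 higher against 3.64% of all genes. The shares of all genes higher at 12 h were 4.98% after 5 Gy and 4.9% after 20 Gy. The 2 genes above control at 12 h, Tyms and E2f2, were not counted because their fold on this scale was under 1.5. Their adjusted p by limma was 0.0589 and 0.00103 for Tyms and 0.00533 and 0.00235 for E2f2 after 5 and 20 Gy. In mean FPKM, E2f2 was at 1.66 and 1.80 times the control. At 24 h, 36 were lower and 2 higher after 5 Gy, and 33 were lower and 2 higher after 20 Gy. Of all genes tested at 24 h, 20.8% were lower and 20.5% higher after 5 Gy, and 23.3% were lower and 17% higher after 20 Gy.

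The median log2 fold change of the 43 genes was -1.34 and -0.87 at 12 h after 5 and 20 Gy, and -1.54 and -1.29 at 24 h, while the median over all genes tested was 0.03, 0.01, -0.05 and -0.14. In FPKM, the 43 genes summed to 702 to 935 in the controls. The sums were 297 to 311 after 5 Gy and 395 to 483 after 20 Gy at 12 h, and 268 to 292 and 309 to 367 at 24 h, so the control libraries lay above all 12 exposed libraries. For 33 of the 43 genes each of the 12 exposed libraries was below each control library, which held for 7.86% of all genes tested. The reverse held for Tyms and E2f2, and for 6.99% of all genes. With 3 libraries against 3, a two-sided exact permutation test of 1 gene cannot give a p below 0.1, the value of each gene whose groups do not overlap.

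**Figure D1:**
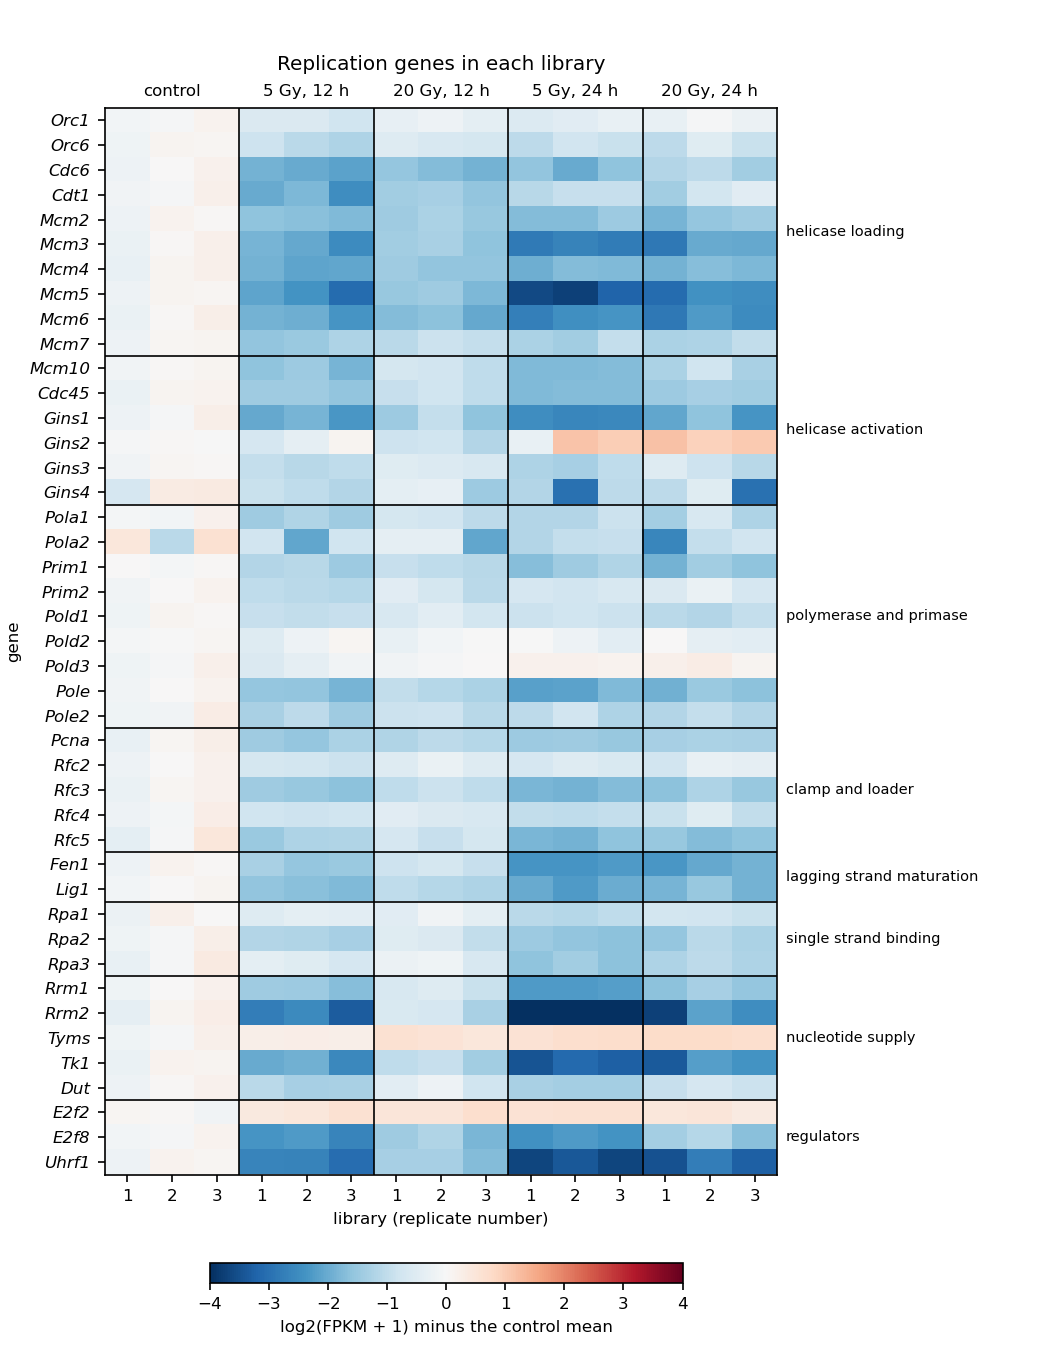
Each row is a replication gene and each column a library, grouped as control, 5 and 20 Gy at 12 h, and 5 and 20 Gy at 24 h; the colour is log2(FPKM + 1) minus the mean of the 3 controls, with values below -4, all in Rrm2, drawn at -4. Nearly all rows are blue in all exposed columns, while Tyms and E2f2 are red in all 12 and Gins2 is red in 5 of the 6 libraries at 24 h.

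Most genes were lower at both doses and both times. Of the 43 genes, 27 were lower in all 4 comparisons with control, where 2.12% of all genes tested were (379 of 17895). Another 5 were lower in 3 of them (Gins3, Prim2, Rfc4, Rrm2 and Dut), 3 in 2 (Rfc2, Rpa1 and Rpa3) and 2 in 1 (Orc1 and Gins4), against 2.15%, 14.9% and 8.02% of all genes. The 6 that were lower in none, as were 72.8% of all genes, were Gins2, Pola2, Pold2, Pold3, Tyms and E2f2. At 12 h after 5 Gy, all 3 libraries lay below all 3 controls for 37 genes, as did 16.9% of all genes tested. At 24 h after 20 Gy this held for 35 genes, against 36.7% of all genes.

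The starts of these genes were searched on both strands for TTTCCCGC, TTTGGCGC, TTTCGCGC and TTTGCCGC, the octamers of the usual E2F motif. RefSeq gives a window from 250 bases before to 50 after the start of the gene, on the GRCr8 build, for 35 of the 43 genes. At least 1 octamer stood in 16 of the 35, or 45.7%, against 2.25% of all 27457 windows and 4.31% of the 8977 windows of genes tested here. Shares above those of all windows also stood in other lists tied to S phase, with an octamer in 12 of 26 windows of other origin and fork genes (46.2%), 3 of 8 of chromatin behind the fork and 4 of 14 of S phase entry and E2F control, so a share of this size is not particular to the 43 genes. An octamer stood in 1 of 9 windows of other nucleotide supply genes, 1 of 20 of mitosis genes and 0 of 9 of p53 targets. The 150 bases before the start are printed below for 5 genes, with the octamers in capitals and the rest in lower case. Mcm2, Mcm6 and Gins1 fell and have overlapping octamers within these bases. On log2(FPKM + 1), Mcm5 fell most of the helicase genes at 24 h, and Tyms was not lower. In mean FPKM, Cdc45 fell more than Mcm5 at 24 h after 5 Gy (23.5 against 19.6 times).
Mcm2, chr4:122918095-122918244, strand minus: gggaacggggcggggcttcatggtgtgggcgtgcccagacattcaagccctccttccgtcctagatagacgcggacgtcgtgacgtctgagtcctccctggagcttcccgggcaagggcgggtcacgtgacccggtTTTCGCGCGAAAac
Mcm6, chr13:42404353-42404502, strand minus: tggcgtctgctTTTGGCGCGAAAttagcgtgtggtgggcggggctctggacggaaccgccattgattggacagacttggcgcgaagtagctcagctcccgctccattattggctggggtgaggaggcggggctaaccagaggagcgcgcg
Gins1, chr3:160184770-160184919, strand plus: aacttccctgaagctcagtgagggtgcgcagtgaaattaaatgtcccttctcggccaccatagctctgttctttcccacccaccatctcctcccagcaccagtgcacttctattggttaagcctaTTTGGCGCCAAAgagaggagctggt
Mcm5, chr19:13488663-13488812, strand plus: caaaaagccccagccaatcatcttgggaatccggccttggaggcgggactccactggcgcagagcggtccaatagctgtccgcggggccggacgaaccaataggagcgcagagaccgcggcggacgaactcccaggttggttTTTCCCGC
Tyms, chr9:120776084-120776233, strand minus: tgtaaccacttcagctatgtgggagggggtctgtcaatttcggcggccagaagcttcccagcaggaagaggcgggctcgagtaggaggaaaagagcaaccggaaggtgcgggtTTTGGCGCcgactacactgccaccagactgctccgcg
Counted from the start of the gene, the first base of the nearest octamer was at -10 in Mcm2, -135 in Mcm6, -21 in Gins1, -8 in Mcm5, whose other octamers lie further upstream than the bases printed, and -37 in Tyms. In Mcm2, Mcm6 and Gins1 an octamer on one strand overlapped one on the other. The windows of Pcna, Uhrf1, Rrm1, Tk1 and Fen1 held none of the 4 octamers, which says only that these letters are not in these windows. A match in the letters describes the sequence and does not show binding.

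The genes that load the helicase were lower nearly throughout. All 10 were lower at 12 h after 5 Gy, with a median of -2.03, and 9 were lower in each of the other 3 comparisons with control, Orc1 being the one that was not. Mcm5, a subunit of the MCM2-7 ring, stood at 21.1, 26.8 and 26.1 FPKM in the 3 control libraries. It read 4.86, 3.89 and 2.04 after 5 Gy and 7.99, 8.50 and 6.43 after 20 Gy at 12 h, and 1.07, 0.914 and 1.78 and 2.00, 3.78 and 3.54 at 24 h. No exposed library reached a control library, and the 6 libraries at 24 h lay below the 3 libraries of 20 Gy at 12 h. Its log2 fold changes against control were -2.53, -1.57, -3.52 and -2.67 for 5 and 20 Gy at 12 h and 5 and 20 Gy at 24 h (SE 0.244, adjusted p at most 0.000935).

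Mcm6, the next largest fall of this group 24 h after 20 Gy, had 28.4, 35.3 and 40.4 FPKM in the controls. At 12 h it had 8.64, 8.20 and 5.88 after 5 Gy and 9.67, 10.3 and 7.59 after 20 Gy, and at 24 h 4.33, 5.45 and 5.84 and 3.90, 6.37 and 5.17. The doses overlapped at both times and every exposed library was below every control. The log2 fold changes were -2.06, -1.81, -2.52 and -2.55 (SE 0.187, adjusted p at most 4.56e-05). The other ring subunits Mcm2, Mcm3, Mcm4 and Mcm7 were lower in all 4 comparisons, with log2 fold changes from -0.97 (Mcm7, 20 Gy at 12 h) to -2.77 (Mcm3, 5 Gy at 24 h).

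Cdc6, a loader of the ring, was among the scarcest of these RNAs after exposure. It had 2.99, 3.63 and 4.12 FPKM in the controls and 0.239, 0.12 and 0.0314 after 5 Gy at 12 h, where the lowest library rested on 4.0 read equivalents. Its log2 fold changes were -2.02, -1.72, -1.73 and -1.21. Orc6, of the origin recognition complex, was lower in all 4 (log2 fold changes -1.06, -0.62, -0.90 and -0.81), but its call at 12 h after 20 Gy was lost without control replicate 2 or 3 or without replicate 3 of 20 Gy (-0.56, -0.59 and -0.57). Orc1, the subunit of the same complex that comes and goes with the cell cycle, passed the test at 12 h after 5 Gy (-0.66, adjusted p = 0.00151), a call lost without control replicate 3 or without replicate 3 of 5 Gy at 12 h (-0.58 each), and its other values were -0.30, -0.43 and -0.19.

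Cdt1, which brings the ring to the origin and is destroyed once S phase starts, was lowest at 12 h and less low at 24 h. Its FPKM was 8.18, 8.74 and 10.7 in the controls, 1.52, 1.91 and 0.794 after 5 Gy and 2.85, 3.06 and 2.38 after 20 Gy at 12 h, and 3.71, 4.37 and 4.35 and 2.90, 5.08 and 6.46 at 24 h. After 5 Gy the 3 libraries at 24 h were all above those at 12 h, while after 20 Gy the lowest at 24 h overlapped those at 12 h. The log2 fold changes against control were -2.10, -1.44, -0.98 and -0.85. From 12 to 24 h Cdt1 changed by 1.12 after 5 Gy (adjusted p = 0.000878). After 20 Gy it changed by 0.58 (adjusted p = 0.0403 by limma), a fold under 1.5 that did not pass the test. Its annotated transcript carries 34.5% of its FPKM, and on that transcript alone the change from 12 to 24 h after 5 Gy was -0.27 and the changes against control were 0.36 at 12 h and 0.08 at 24 h after 20 Gy.

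Of the 6 genes that activate the helicase, 4, 3, 5 and 4 were lower at 12 h after 5 and 20 Gy and at 24 h after 5 and 20 Gy. Gins1, a subunit of the GINS complex, had 6.71, 7.52 and 9.42 FPKM in the controls. It had 1.15, 1.42 and 0.74 and 2.22, 3.60 and 1.89 at 12 h after 5 and 20 Gy, and 0.568, 0.458 and 0.463 and 1.08, 1.88 and 0.702 at 24 h. All exposed libraries lay below all controls, and at each time all 3 libraries of 20 Gy lay above those of 5 Gy. The log2 fold changes were -2.08, -1.33, -2.56 and -2.02 (SE 0.214, adjusted p at most 0.00115). Cdc45, which forms the active helicase with MCM and GINS, and Mcm10, which helps to start it, were lower in all 4 comparisons, with log2 fold changes of -0.91 to -1.74 and -0.83 to -1.76. Gins3 was lower in 3 and had -0.56 at 12 h after 20 Gy.

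Gins4 varied widely within groups, and 2 libraries listed it at 0. It had 3.97, 8.86 and 9.10 FPKM in the controls, 3.25, 2.92 and 2.53 and 5.02, 5.32 and 1.91 at 12 h, and 2.50, 0 and 2.84 and 2.86, 4.71 and 0 at 24 h after 5 and 20 Gy. The controls overlapped the libraries of 20 Gy at both times. The 5 Gy libraries at 24 h were lower (-1.73, adjusted p = 0.0297), a call lost without replicate 2 of that group (-1.11) and without control replicate 2 (-1.58) or 3 (-1.56). Its single transcript stands under 1 locus number with Golga7 in the table, so unnamed transcripts of that locus were counted for neither gene.

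The 9 polymerase and primase genes had 6 lower at each of the 4 comparisons but the last, where 5 were. Pole, the catalytic subunit of the leading strand polymerase epsilon, had 7.46, 8.35 and 9.29 FPKM in the controls, 2.19, 2.12 and 1.56 and 3.75, 3.26 and 2.90 at 12 h after 5 and 20 Gy, and 1.05, 1.12 and 1.72 and 1.47, 2.35 and 1.96 at 24 h. Prim1, the catalytic subunit of primase, had 14.9, 14.1 and 15.5 in the controls, 6.07, 6.26 and 4.77 and 7.35, 6.80 and 6.30 at 12 h, and 3.84, 4.92 and 5.80 and 3.23, 5.04 and 4.20 at 24 h. Neither gene had an exposed library within the range of the controls. Log2 fold changes were -1.67, -1.12, -2.04 and -1.68 for Pole (SE 0.151, adjusted p at most 0.000351) and -1.25, -1.02, -1.45 and -1.63 for Prim1 (SE 0.149, adjusted p at most 0.00062).

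Pola1, the catalytic subunit of polymerase alpha, Pold1, that of polymerase delta, and Pole2, a further subunit of epsilon, were also lower in all 4 comparisons, with values from -0.60 to -1.34. The call of Pold1 at 12 h after 20 Gy was lost without control replicate 2 or 3 (-0.54 and -0.58) or without replicate 1 or 3 of 20 Gy (-0.58 and -0.53). Prim2, the large primase subunit, was lower in 3 and had -0.51 at 24 h after 20 Gy, and its call at 12 h after 20 Gy was lost without replicate 3 of that group (-0.57). Pola2, the regulatory subunit of polymerase alpha, was listed at 8.02, 2.10 and 8.90 FPKM in the controls, with single low libraries in other groups too. It passed the test in no comparison (-1.21, -0.94, -1.02 and -1.44, SE 0.612). Its transcripts stand under 1 locus number with Cdc42ep2, so unnamed transcripts of that locus were counted for neither gene.

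The smaller subunits of polymerase delta passed the test in no comparison. Pold2 had 20.2, 20.9 and 22.3 FPKM in the controls and 21.2, 16.4 and 15.4 at 24 h after 20 Gy, with log2 fold changes of -0.23, -0.14, -0.21 and -0.26. Its locus ends beside Aebp1 on the other strand, whose own level was 320 to 343 FPKM in the controls, and the strand setting of the counting is not given in the sources used here. Pold3, the accessory subunit also used in repair, had 2.89, 3.22 and 4.02 FPKM in the controls and 3.89, 3.92 and 3.76 and 3.99, 4.34 and 3.67 at 24 h after 5 and 20 Gy, with log2 fold changes of -0.35, -0.05, 0.16 and 0.20.

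Pcna, the clamp that holds the polymerases on DNA, had the highest mean FPKM of the 43 genes over the 15 libraries, although Tyms lay above it in all libraries at 24 h. It read 90.8, 118 and 131 FPKM in the controls, 41.3, 37.8 and 45.8 and 48.3, 53.7 and 50.7 at 12 h after 5 and 20 Gy, and 40.7, 40.8 and 38.7 and 44.2, 45.8 and 44.6 at 24 h. The 12 exposed libraries lay within 37.8 to 53.7 FPKM, all below the controls. Group means were 113 ± 20.6 FPKM (SD, n = 3) in the controls and 44.9 ± 0.812 (SD, n = 3) at 24 h after 20 Gy, and log2 fold changes were -1.41, -1.12, -1.46 and -1.30 (SE 0.113, adjusted p at most 3.48e-05). Pcna is also known as a gene that p53 can switch on.

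The clamp loader is built from RFC1 and the products of Rfc2 to Rfc5. Rfc5 had 10.2, 13.3 and 19.3 FPKM in the controls, 4.27, 5.29 and 5.52 and 8.32, 6.80 and 8.18 at 12 h, and 3.15, 3.03 and 3.91 and 4.24, 3.50 and 3.90 at 24 h after 5 and 20 Gy. Rfc3 had 12.7, 16.3 and 17.5 in the controls, 5.13, 4.66 and 4.27 and 7.09, 8.02 and 7.09 at 12 h, and 3.59, 3.39 and 3.94 and 4.30, 5.89 and 4.73 at 24 h. For both, all exposed libraries were below all controls. Log2 fold changes were -1.31, -0.76, -1.77 and -1.61 for Rfc5 (adjusted p at most 0.0118) and -1.53, -0.96, -1.82 and -1.46 for Rfc3 (adjusted p at most 0.000319), and the call of Rfc5 at 12 h after 20 Gy was lost without control replicate 3 (-0.54). Rfc4 was lower in 3 comparisons (-0.81, -0.56, -0.98 and -0.79). Rfc2 passed the test after 5 Gy at both times and after 20 Gy at neither (-0.76, -0.42, -0.61 and -0.48), and at 24 h that call was lost without control replicate 3 (-0.52) or replicate 1 of 5 Gy (-0.57).

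Fen1, the nuclease that trims the flaps of the lagging strand, and Lig1, the ligase that seals them, were lower in all 4 comparisons. Fen1 had 8.97, 11.8 and 10.9 FPKM in the controls, 3.67, 2.90 and 3.13 and 5.43, 6.04 and 5.11 at 12 h after 5 and 20 Gy, and 1.24, 1.24 and 1.38 and 1.28, 1.80 and 2.07 at 24 h. Lig1 had 12.97, 14.1 and 15.1 in the controls, 4.01, 3.76 and 3.45 and 6.41, 5.80 and 5.38 at 12 h, and 2.75, 2.12 and 2.81 and 3.18, 4.21 and 3.04 at 24 h. In both genes the 24 h libraries lay below all 12 h libraries of the same dose. Log2 fold changes were -1.45, -0.82, -2.33 and -2.09 for Fen1 (SE 0.13, adjusted p at most 0.00107) and -1.67, -1.13, -2.08 and -1.76 for Lig1 (SE 0.12, adjusted p at most 5.57e-05).

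Of RPA, which coats single-stranded DNA in replication and in repair, 1 subunit was lower at 12 h and all 3 at 24 h. Rpa2 was lower in all 4 comparisons (-1.23, -0.68, -1.55 and -1.29), though at 12 h after 20 Gy its call was lost without control replicate 3 (-0.56) or replicate 3 of 20 Gy (-0.52). Its FPKM was 10.2, 11.2 and 13.9 in the controls, 4.64, 4.50 and 4.05 and 8.09, 7.54 and 5.34 at 12 h, and 3.64, 3.28 and 3.06 and 3.38, 5.01 and 4.25 at 24 h after 5 and 20 Gy. Rpa3, the smallest subunit, had 15.8, 18.8 and 25.4 FPKM in the controls, 14.8, 13.7 and 11.9 and 16.6, 17.1 and 12.3 at 12 h, and 5.81, 6.94 and 5.61 and 7.69, 8.91 and 7.80 at 24 h. The 12 h libraries of 20 Gy overlapped the controls and the 24 h libraries of both doses lay below every other library. Rpa3 and Rpa1, the large subunit that holds the DNA, passed the test at 24 h (-1.54 and -1.18 for Rpa3, -1.08 and -0.80 for Rpa1), while at 12 h the values were -0.52 and -0.35 for Rpa3 and -0.44 and -0.33 for Rpa1. At 12 h after 5 Gy all libraries of Rpa3 and Rpa1 lay below all controls, with a fold under 1.5 (adjusted p = 0.0438 and 0.0123 by limma). At 12 h after 20 Gy both genes overlapped the controls (adjusted p = 0.173 and 0.0542 by limma).

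Nucleotide supply held the deepest fall of the 43 genes at 24 h after 5 Gy, and a rise. Rrm2, the subunit of ribonucleotide reductase that is made in S phase, had 46.5, 64.8 and 72.3 FPKM in the controls. At 12 h it had 7.99, 9.53 and 5.04 after 5 Gy and 38.7, 37.5 and 23.8 after 20 Gy, and at 24 h 1.04, 1.16 and 1.72 and 3.61, 12.9 and 9.90. The controls lay above all exposed libraries, and at both times the 3 libraries of 20 Gy lay above the 3 of 5 Gy. Mean FPKM was 46.8 times lower than control at 24 h after 5 Gy and 6.95 times lower after 20 Gy. Log2 fold changes were -2.88, -0.87, -4.74 and -2.79 (SE 0.357), with an adjusted p of 0.122 at 12 h after 20 Gy and at most 0.000148 in the others.

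Tk1, the thymidine kinase of dividing cells, was lower in all 4 comparisons. It had 28.3, 37.8 and 36.8 FPKM in the controls, 7.60, 8.26 and 4.89 and 16.2, 17.6 and 12.4 at 12 h after 5 and 20 Gy, and 2.17, 3.03 and 2.68 and 2.43, 6.66 and 5.64 at 24 h. The 20 Gy libraries lay above the 5 Gy ones at 12 h and overlapped them at 24 h. Its log2 fold changes were -2.17, -1.11, -3.28 and -2.65 (SE 0.269, adjusted p at most 0.0138), and the call at 12 h after 20 Gy was lost without control replicate 2 or 3 (-1.04 and -1.05) or replicate 3 of 20 Gy (-0.97). Rrm1, the large subunit of ribonucleotide reductase, was lower in all 4 (-1.53, -0.68, -2.25 and -1.51), although its call at 12 h after 20 Gy was lost without replicate 3 of that group (-0.57). Dut, which removes dUTP, was lower in 3 (-1.24, -0.48, -1.34 and -0.82).

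Tyms, thymidylate synthase, which makes dTMP and is usually counted with the genes above, went the other way. It had 25.3, 27.4 and 32.7 FPKM in the controls, 33.6, 34.4 and 33.4 and 43.5, 42.0 and 39.2 at 12 h after 5 and 20 Gy, and 42.6, 45.8 and 46.6 and 48.2, 47.9 and 45.3 at 24 h. Every exposed library was above every control. The rise passed the test at 24 h after 5 Gy (0.65, adjusted p = 2.58e-05) and 20 Gy (0.72, adjusted p = 1.23e-05). At 12 h the values were 0.25 and 0.54, with an adjusted p by limma of 0.0589 and 0.00103 and a fold under 1.5. The call at 24 h after 5 Gy was lost without control replicate 1 (0.57). Its annotated transcript carried 94.6% of its FPKM. An unnamed locus on the opposite strand overlaps it, at 2.25 to 16.4 FPKM in the controls. That locus had 2.72 to 23.7 and 2.83 to 27.0 FPKM at 12 h after 5 and 20 Gy, and 1.68 to 1.76 and 1.79 to 16.0 at 24 h. Its part in the value of Tyms was not tested.

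**Figure D2:**
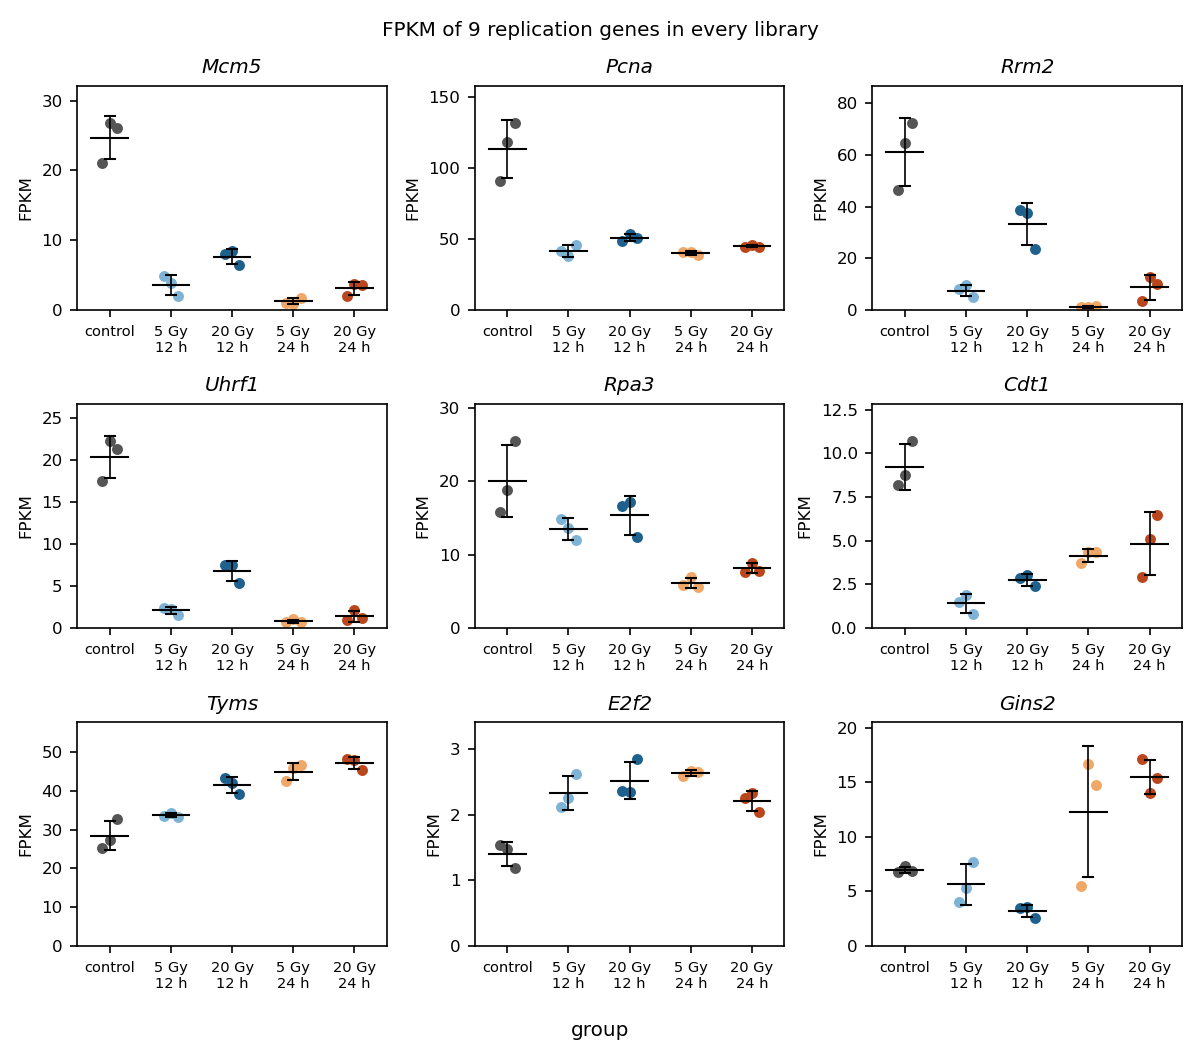
FPKM of 9 replication genes, with a point for each library, a line at the mean and bars of 1 SD for the 3 libraries of each of the 5 groups; each axis starts at 0. Mcm5, Pcna, Rrm2 and Uhrf1 are lower in all exposed libraries, Rpa3 at 24 h, Cdt1 most at 12 h, while Tyms and E2f2 are higher in all exposed libraries and Gins2 is at 14.0 to 17.1 FPKM at 24 h after 20 Gy against 6.79 to 7.33 in the controls.

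Of the regulators, Uhrf1, which recognises hemimethylated DNA behind the fork for DNMT1, had 17.5, 22.2 and 21.4 FPKM in the controls. It had 2.42, 2.30 and 1.57 and 7.51, 7.49 and 5.36 at 12 h after 5 and 20 Gy, and 0.665, 1.03 and 0.66 and 0.904, 2.13 and 1.20 at 24 h. The libraries of 20 Gy at 12 h stood apart from the other exposed libraries and below the controls. Log2 fold changes were -2.79, -1.46, -3.58 and -3.17 (SE 0.192, adjusted p at most 0.000292). E2f8, an E2F that represses and is itself an E2F target, had 6.21, 6.46 and 7.48 FPKM in the controls, 0.493, 0.606 and 0.221 and 1.88, 2.36 and 1.17 at 12 h, and 0.43, 0.596 and 0.469 and 2.02, 2.48 and 1.39 at 24 h. At each time its 20 Gy libraries all exceeded its 5 Gy libraries, and log2 fold changes against control were -2.43, -1.48, -2.36 and -1.39 (SE 0.176, adjusted p at most 0.000138).

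E2f2, an activating E2F, was the other gene above control in all 12 exposed libraries, but its sum was made of different transcripts. The sum was 1.53, 1.47 and 1.19 FPKM in the controls, 2.11, 2.25 and 2.61 and 2.36, 2.35 and 2.84 at 12 h after 5 and 20 Gy, and 2.59, 2.67 and 2.65 and 2.26, 2.33 and 2.04 at 24 h. It passed the test at 24 h after 5 Gy (0.60, adjusted p = 0.000176), a call lost without control replicate 3 (0.54). In the other comparisons it had 0.47, 0.55 and 0.42, with an adjusted p by limma of 0.00533, 0.00235 and 0.00259 but a fold under 1.5 on log2(FPKM + 1). On the Rnor_6.0 build of the table, the locus lies on the plus strand of chromosome 5. An assembled transcript of 7 exons from 154517042 to 154540170 held most of it in the controls, at 1.19, 1.42 and 1.19 FPKM. In the 6 libraries of 5 Gy it was at 0, 0 and 0 at 12 h and 0.0114, 0 and 0 at 24 h, and after 20 Gy at 0.134, 0.656 and 0.214 and 0, 0.0569 and 0.137.

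An assembled transcript of 5 exons with a later first exon, from 154524793 to 154540271, made up most of the sum in the exposed libraries. It had 0.017, 0.0542 and 0 FPKM in the controls, or at most 10.5 read equivalents. After 5 Gy it had 2.11, 2.25 and 2.61 FPKM at 12 h and 2.57, 2.62 and 2.54 at 24 h, and after 20 Gy 2.23, 1.69 and 2.63 and 2.26, 2.27 and 1.90, on 329.9 to 530.9 read equivalents. The assembled 7-exon transcript was lower in every exposed library than in any control. Its mean over all libraries was under 0.5 FPKM, while the 5-exon transcript reached 0.5 FPKM only through the exposed groups, so the values of both are given as a description with no test. The annotated transcript of 7 exons from 154522119 to 154540265 was at 0 in 12 of the 15 libraries and at most 0.329 FPKM.

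**Figure D3:**
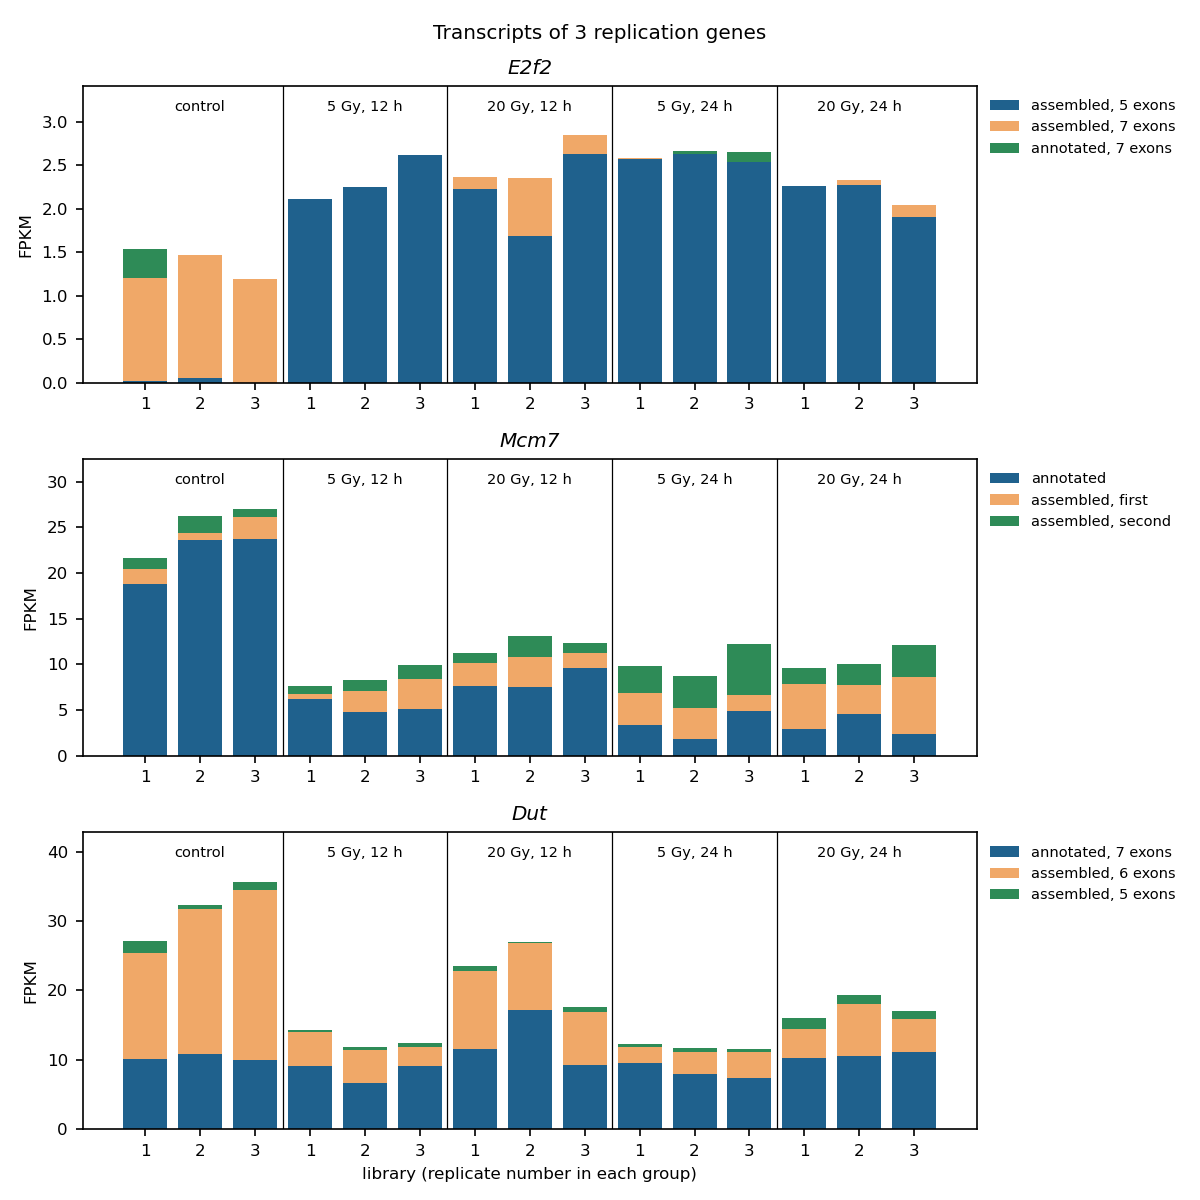
Stacked bars give the FPKM of each transcript of E2f2, Mcm7 and Dut in each of the 15 libraries, by group; the colours mark the transcripts. E2f2 is made mostly of an assembled 7-exon transcript in the 3 controls and of the 5-exon one in the 12 exposed libraries, the annotated Mcm7 transcript falls from 18.8 to 23.7 FPKM in the controls to 2.42 to 4.54 at 24 h after 20 Gy, and the 7-exon Dut transcript lies at 6.68 to 17.1 FPKM in all groups while the 6-exon one falls.

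Assembled transcripts held 96.7% of the FPKM of Prim1, 99.3% of Pold1, 72.1% of Mcm4 and all of E2f8. The 43 genes have 108 transcripts, of which 78 reached a mean of 0.5 FPKM and entered a limma fit over 41932 single transcripts that was added after the values had been seen. A transcript can reach that mean through the groups where it is high, as the 5-exon E2f2 transcript did, so the counts are a description. Of the 78, 34 were lower and 1 higher at 12 h after 5 Gy, and 24 lower and 1 higher after 20 Gy, where 4.33% and 3.7% of all transcripts tested were called in either direction. At 24 h, 40 were lower and 3 higher after 5 Gy, and 38 lower and 4 higher after 20 Gy, against 24.1% and 24.2% of all transcripts. The only gene with transcripts called in both directions was Mcm7, at 24 h after each dose, where its annotated transcript was lower (-2.45 and -2.44). One assembled transcript with a different start was higher after 5 Gy (1.09) and another after 20 Gy (1.18).

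In Dut, the 6-exon transcript fell from 15.2, 21.0 and 24.5 FPKM in the controls to 2.38, 3.18 and 3.76 at 24 h after 5 Gy and 4.20, 7.51 and 4.75 after 20 Gy (-2.36 and -1.72, adjusted p = 3.82e-05 and 0.0004). The annotated 7-exon transcript was at 10.2, 10.8 and 9.98 FPKM in the controls and at 9.50, 7.94 and 7.36 and 10.3, 10.5 and 11.1 at 24 h, and passed the test in none of the 4 comparisons (-0.30, 0.23, -0.29 and 0.04). How the reads are shared between overlapping transcripts is an estimate of the assembler, so values of single transcripts are less sure than gene sums.

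Gins2, which like Gins1 belongs to the GINS complex, rose between 12 and 24 h. It had 6.79, 7.33 and 6.89 FPKM in the controls, 4.02, 5.28 and 7.67 and 3.50, 3.60 and 2.56 at 12 h after 5 and 20 Gy, and 5.48, 16.7 and 14.8 and 17.1, 14.0 and 15.4 at 24 h. After 20 Gy the 3 groups did not overlap, with 12 h lowest and 24 h highest, while after 5 Gy both times overlapped the controls. Log2 fold changes against control were -0.30, -0.93, 0.61 and 1.04 (SE 0.306), of which the last passed the test (adjusted p = 0.0105). From 12 to 24 h it rose by 0.91 after 5 Gy and 1.97 after 20 Gy (adjusted p = 0.023 and 0.00014), and the call after 5 Gy was lost without replicate 1 (0.72) or 2 (0.89) at 12 h or replicate 2 (0.64) or 3 (0.72) at 24 h.

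The rise of Gins2 was in its longer transcripts, none of which passed the test alone. The annotated transcript of 4192 bases, on chromosome 19 from 54151048 to 54163608 (Rnor_6.0, minus strand), had 1.32, 1.58 and 4.70 FPKM in the controls and 17.1, 6.37 and 1.08 at 24 h after 20 Gy. In the third of those libraries an assembled transcript of 2224 bases that ends further downstream had 14.2 FPKM, and in the second one of 3818 bases had 6.05. The assembled transcripts of 1082, 1446 and 1488 bases had up to 1.36, 2.11 and 1.24 FPKM in the controls and at most 0.0988 in any exposed library. Gse1, on the opposite strand, ends close to the end of Gins2, and it was at 0 to 0.643 FPKM in the controls, 0.411 to 9.78 at 24 h after 5 Gy and 0.0558 to 2.64 after 20 Gy. Unnamed transcripts from loci with several names also overlap Gins2 on the opposite strand. They had a mean of 12.1 FPKM over the libraries, against 8.74 for Gins2, and were counted for no gene. The part of Gse1 or of these transcripts in the value of Gins2 was not tested.

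Between 12 and 24 h most replication genes stayed low, while mitosis genes fell further. After 5 Gy, 9 of the 43 genes were lower and 2 higher at 24 h than at 12 h (median -0.11), against 19.3% of all genes lower and 17.1% higher. The 9 lower after 5 Gy thus lie near the share of all genes. After 20 Gy, 14 were lower and 1 higher (median -0.34), against 22.1% lower and 14.1% higher, and with quantile normalization the split was 10 lower and 3 higher. Over all genes tested that normalization gave 3067 lower and 3039 higher, against 3963 and 2526. Of 21 mitosis genes, 19 were lower at 24 h after each dose, with medians of -1.42 and -1.28. The 2 lists were not tested against each other. Against control, mitosis genes had medians of -1.02 and -0.68 at 12 h and -2.76 and -2.05 at 24 h after 5 and 20 Gy, with 18, 8, 21 and 21 of 21 lower. At 24 h after 20 Gy the largest falls were in Cdc20, which activates the anaphase-promoting complex (-3.02), and Ccnb1, cyclin B1 (-2.46).

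The replication genes that fell further from 12 to 24 h after both doses were Mcm3, Mcm5, Fen1, Rpa3, Rrm1, Rrm2, Tk1 and Uhrf1. Rrm2 fell by 1.86 and 1.92 on the log2 scale after 5 and 20 Gy (adjusted p = 0.000704 and 0.000576). Fen1 fell by 0.88 and 1.27 (adjusted p = 8.76e-05 and 4.31e-06) and Rpa3 by 1.02 and 0.83 (adjusted p = 0.000168 and 0.000883). The ninth gene after 5 Gy was Rpa1, and after 20 Gy Mcm6, Gins1, Prim1, Rfc5, Lig1 and Rpa2 were added, of which 4 calls were lost without single libraries. These were Gins1 without replicate 2 at 12 h (-0.49) or 3 at 24 h (-0.52), Prim1 without replicate 1 at 12 h (-0.56) or 24 h (-0.48), Lig1 without replicate 1 at 12 h (-0.57) or 1 or 3 at 24 h (-0.58 and -0.55), and Rpa2 without replicate 1 or 2 at 12 h (-0.51 and -0.55) or 1 at 24 h (-0.49). On its most abundant transcript Uhrf1 had 0.15 after 5 Gy and Prim1 0.07 after 20 Gy. The call of Mcm3 after 5 Gy was lost without replicate 1 (-0.49) or 2 (-0.59) at 12 h or replicate 1 (-0.60) or 3 (-0.62) at 24 h. Pcna and Mcm2 had -0.05 and 0.05 after 5 Gy and -0.18 and -0.21 after 20 Gy, and passed the test at neither dose.

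**Figure D4:**
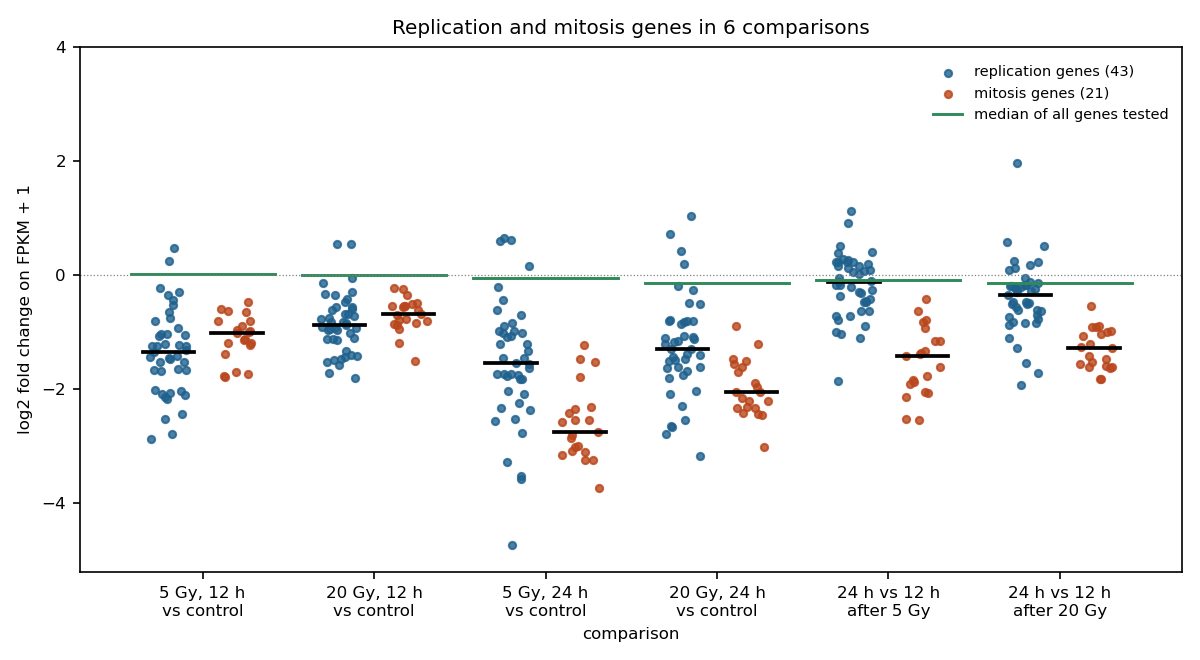
Points are the log2 fold changes, on FPKM + 1, of 43 replication genes (blue) and 21 mitosis genes (red) in 6 comparisons, with black lines at each list's median and a green line at the median of all 17895 genes tested; sideways scatter is only for display. The blue median is -1.34, -0.87, -1.54 and -1.29 against control but -0.11 and -0.34 from 12 to 24 h, where the red median is -1.42 and -1.28.

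Most replication genes had higher values after the larger dose than after the smaller one, and few of the differences passed the test. At 12 h, 42 of the 43 genes had a positive log2 fold change of 20 Gy against 5 Gy, with a median of 0.47, and for 31 genes all 3 libraries of 20 Gy lay above all 3 of 5 Gy, as did 6.39% of all genes tested. Gins2 was the exception (-0.63). Over all 17895 genes tested the median was -0.01, with 9549 genes below 0. Only Rrm1 (0.85, adjusted p = 0.0213) and Uhrf1 (1.33, adjusted p = 0.0213) passed the test over all genes, where 0.117% of all genes were higher. When limma fitted only these 2 groups, 0 of the 43 passed, and 2 of all genes tested. Leaving out single libraries gave 0 to 4 genes, and both calls were lost without replicate 1, 2 or 3 of 5 Gy or replicate 1 or 2 of 20 Gy at 12 h, with values of 0.76 to 0.90 for Rrm1 and 1.20 to 1.41 for Uhrf1. Rrm2 had the largest difference of the 43 (2.02, SE 0.357, adjusted p = 0.0552).

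At 24 h the median difference was 0.24, with 35 of 43 genes positive. Over all 17895 genes tested the median was -0.07, with 11276 genes below 0. For 15 of the 43 genes all 20 Gy libraries lay above all 5 Gy libraries, against 6.78% of all genes. Rrm2 (1.95, adjusted p = 0.00954), E2f8 (0.97, adjusted p = 0.00931), Rrm1 (0.74, adjusted p = 0.00657) and Mcm10 (0.63, adjusted p = 0.0355) were higher after 20 Gy, against 0.956% of all genes. Over all genes 171 were higher and 262 lower, with quantile normalization 199 and 151, and after rescaling to TPM, which sums to the same total in each library, 203 and 527. When only these 2 groups were fitted, 37 of all genes tested were called and the 4 calls were lost. That of Mcm10 was also lost without replicate 2 of 20 Gy at 24 h (0.47), any replicate of 5 Gy at 24 h (0.63 to 0.65), or control replicate 2, replicate 1 of 5 Gy or replicate 2 of 20 Gy at 12 h (0.63 each). A test of whether the change from 12 to 24 h differed between the doses called 0 of the 43 genes with limma, where 0.553% of all genes were called, and 5 had an unadjusted p under 0.05.

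**Figure D5:**
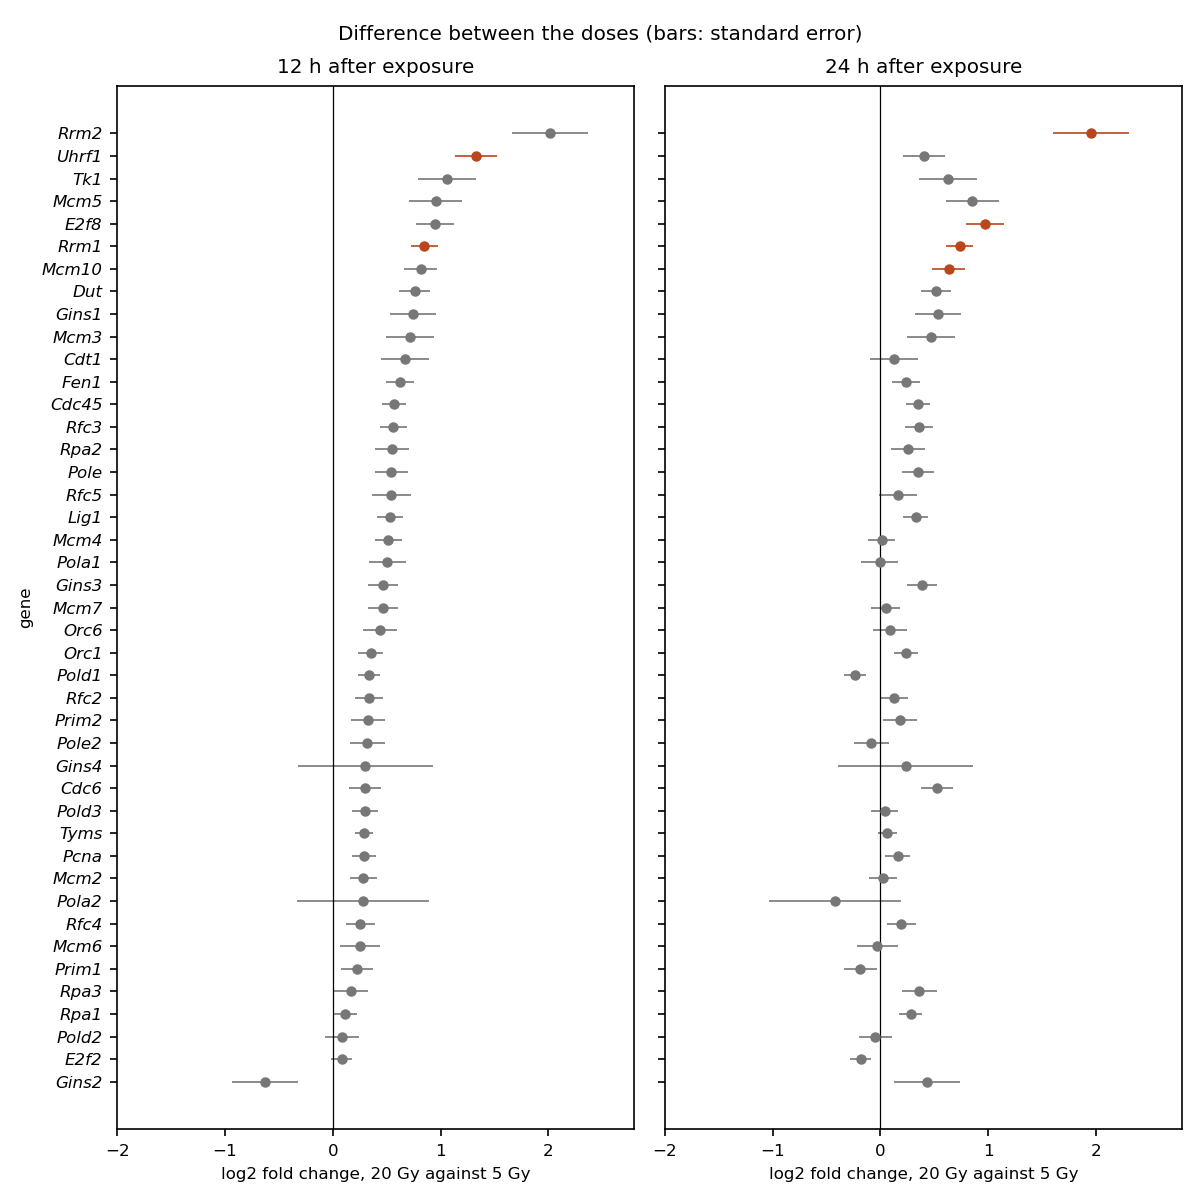
Each point is the log2 fold change of 20 Gy against 5 Gy for 1 replication gene at 12 h (left) or 24 h (right), with bars of 1 standard error; red points passed the test over all genes. At 12 h all points but Gins2 lie right of 0 and at 24 h 35 of 43 do, with Rrm2 at 2.02 and 1.95.

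Further genes of the same processes were described from lists of their function, and their counts are read against the shares of all genes given above, 4.96%, 3.64%, 20.8% and 23.3% lower and 4.98%, 4.9%, 20.5% and 17% higher in the 4 comparisons with control. Of 27 other origin and fork genes, 8, 2, 12 and 12 were lower and 0, 1, 2 and 1 higher at 12 h after 5 and 20 Gy and at 24 h after 5 and 20 Gy, with medians of -0.42, -0.22, -0.55 and -0.56. Those that fell most at 24 h after 20 Gy were Gmnn, which keeps CDT1 in check (-1.93), and Wdhd1, which ties polymerase alpha to the helicase (-1.45), and the gene that rose was Top1, the topoisomerase that relaxes DNA ahead of the fork (1.67). Orc2 to Orc5, other subunits of the origin recognition complex, had log2 values of -0.12 to 0.38 at 24 h after 20 Gy, and none passed the test.

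Of 11 genes for chromatin behind the fork, 10, 7, 10 and 10 were lower in the 4 comparisons and 0 higher. Asf1b, a histone chaperone, fell most at 24 h after 20 Gy (-2.37), then Dscc1, part of the alternative clamp loader (-2.04). Slbp, which binds the end of histone RNAs in S phase, was lower at 12 h (-1.49 and -0.87) but had 0.56 and 0.47 at 24 h. Of 11 other nucleotide supply genes, 5, 2, 5 and 4 were lower and 0, 1, 2 and 1 higher, so the numbers higher at 24 h lie near or below the shares of all genes. Dctpp1, which breaks down dCTP, fell most at 24 h after 20 Gy (-1.47), and Dck, which salvages deoxycytidine, rose (1.25). Rrm2b, the p53-induced partner of RRM1, had 0.81, 0.50, 0.61 and 0.08 and passed the test in none.

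Among 17 genes of S phase entry and E2F control, 7, 5, 7 and 9 were lower and 2, 2, 3 and 3 higher in the 4 comparisons, so the 3 of 17 higher at each dose at 24 h lie near the shares of all genes. Ccna2, cyclin A2, was lower in all 4 and fell most at 24 h (-4.20 and -2.75), followed after 20 Gy by Fbxo5 (-1.68). The E cyclins Ccne1 and Ccne2, which start S phase, were lower at 12 h after both doses (-1.97 and -1.58 for Ccne1, -1.27 and -0.90 for Ccne2). At 24 h Ccne1 was still lower (-0.97 and -1.48), and Ccne2 had 0.13 and -0.19. E2f7, the partner of E2f8, was lower in all 4 (-1.71, -0.65, -1.81 and -1.43). Rb1, the retinoblastoma gene, and Cdkn1a were higher in all 4, Cdkn1a by 2.36 and 3.76 at 12 h and 2.79 and 3.77 at 24 h after 5 and 20 Gy.

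Other groups of genes moved in the same libraries, and their part in the fall of the replication genes was not tested. Of 13 p53 targets, 11, 11, 11 and 10 were higher, against 4.98%, 4.9%, 20.5% and 17% of all genes, Mdm2 among them (1.30, 2.00, 3.00 and 2.78). The 2 that rose most at 24 h after 20 Gy were Gdf15 (5.15) and Cdkn1a. Heat shock genes summed to 214 to 238 FPKM in the controls and 185 to 212 and 203 to 228 at 12 h after 5 and 20 Gy, but to 1904 to 2626 and 7321 to 8789 at 24 h, when 6 of 6 tested were higher. Hspa1b and Hsph1, heat shock chaperones, rose most after 20 Gy (8.76 and 6.19). Rescaling to TPM moved the median of all genes at 24 h after 5 Gy from -0.05 to 0.06. The fibroblast markers given above were lower at 24 h in 5 of 8 genes after each dose, most of all Col1a1 (-4.03) and Col3a1 (-3.85), both collagens, after 20 Gy. Of the markers of other cells, those that passed the test at 24 h after 20 Gy were Pdgfrb (-1.85), Cspg4 (-1.05) and Myh11 (1.02) of pericytes and smooth muscle, Slc1a2 (-0.70) and Aldh1l1 (1.20) of astrocytes, Tmem119 (-0.99) of microglia and Stmn2 (-1.51) of neurons, and 0 of 5 endothelial markers by limma.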

How the data were processed

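RNA sequencing with 150-base reads was done on 15 libraries, 3 in each of 5 groups. The authors trimmed the reads (Trimmomatic), aligned them to the rat genome (HISAT2 2.0.13 in the submitters' processing notes, build Rnor_6.0) and assembled and quantified transcripts with StringTie. They deposited 1 table of FPKM for 85322 transcripts, annotated and assembled, with no read counts, and the strand setting is not given in the sources used here. The processing notes also name kallisto, of which no values were used here.

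FPKM were summed by gene name. Unnamed transcripts were added to the gene of their locus, and 4738 transcripts at loci with several names were left out. Genes with a mean of at least 0.5 FPKM (17895) were tested on log2(FPKM + 1) with limma 3.58.1 in R 4.3.3, in 1 fit of all 5 groups with 10 residual degrees of freedom, and p-values were adjusted over all genes tested. In data simulated for 20 Gy at 24 h against control, with 200 of 17895 genes changed, 85.5% were recovered, 77% at a log2 change of 1 and 94% at 2. Depth was recovered from the steps between values and is stated in read equivalents.

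The genes and lists were chosen with earlier results of these data known. Each member was named with its role, and values per library were given for the 2 members of each role with the largest change at 24 h after 20 Gy, for Pcna, and for members called against the median's sign. From the other lists, the 2 largest rises and the 2 largest falls among called genes were given, plus Cdkn1a, Mdm2, E2f7, Rrm2b, Ccne1, Ccne2 and Ccna2. The values of 1 gene that this rule names are not reported here. Other values were added after they had been seen, as was the fit of single transcripts. The alternatives were a pseudocount of 0.1, other filters on low values, quantile normalization, rescaling to TPM (transcripts scaled to the same total in each library), annotated or top transcripts only, fits of only the groups compared, a fold of 2, a replicate block and leaving out each library.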

Additional observations from a re-analysis of the deposited data

Results flagged for a closer look

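The results in this part are differences that passed the test, on log2(FPKM + 1). Differences between doses are all listed. Differences between times are listed only for genes whose change against control had opposite signs at 12 and 24 h, and the others are given above. Rrm2 was higher at 24 h after 20 Gy than after 5 Gy by 1.95, E2f8 by 0.97, Rrm1 by 0.74 and Mcm10 by 0.63. At 12 h Uhrf1 was higher after 20 Gy by 1.33 and Rrm1 by 0.85. Gins2 was higher at 24 h than at 12 h by 0.91 after 5 Gy and by 1.97 after 20 Gy. Groups of 3 libraries were not tested for a sample far from the others.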

How the results depend on the processing

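Of the 167 calls of single replication genes, 21 were lost when 1 library was left out. The count of genes called, lowest to highest without 1 library, was 33 to 35, 22 to 31, 35 to 38 and 35 to 37 against control (5 and 20 Gy at 12 h, then at 24 h), 9 to 14 and 13 to 17 from 12 to 24 h after 5 and 20 Gy, 0 to 4 and 3 to 6 between doses at 12 and 24 h, and 0 to 0 for the change over time between doses by limma, where 5 had an unadjusted p under 0.05. The medians were -1.51 to -1.25 and -0.97 to -0.77 at 12 h, -1.64 to -1.42 and -1.33 to -1.14 at 24 h, -0.17 to -0.09 and -0.49 to -0.25 from 12 to 24 h, and 0.42 to 0.51 and 0.17 to 0.27 between doses. Without control replicate 1 or 3 the medians of 5 Gy at 12 h and 20 Gy at 24 h were at -1.51 and -1.14.

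The same replicate numbers stand in each group. Deviations of same-numbered libraries had correlations of -0.177 to 0.232 over 30 pairs, and of other pairs -0.209 to 0.203 over 60. Between 5 and 20 Gy, same-numbered libraries had 0.161, 0.045 and 0.232 at 12 h and 0.155, 0.064 and 0.083 at 24 h. Other numbers had -0.192 to 0.056 at 12 h and -0.102 to 0.022 at 24 h. A pairing of the doses alone was not tested, as the block below spans all 5 groups. A replicate block left 34, 28, 38 and 35 genes called against control, 11 and 15 over time, 2 and 4 between doses and 0 for the change over time between doses by limma, with 8 residual degrees of freedom, and changed no call.

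On annotated transcripts only, Cdt1 had 0.36 at 12 h and 0.0845 at 24 h after 20 Gy and -0.27 from 12 to 24 h after 5 Gy, Dut 0.0424 at 24 h after 20 Gy and Uhrf1 0.13 from 12 to 24 h after 5 Gy. On the most abundant transcript Dut had 0.0424, Uhrf1 0.15 and Prim1 0.0741, the last from 12 to 24 h after 20 Gy. The cause of these reversals is which transcripts were summed. Annotated transcripts gave 17 genes called at 12 h after 20 Gy (median -0.73), 7 over time after 5 Gy, 0 and 1 between doses at 12 and 24 h, and a median of -0.51 over time after 20 Gy, where the most abundant transcript gave -0.48; that transcript gave 2 between doses at 24 h. A fold of at least 2 gave 15 at 12 h after 20 Gy, 4 and 6 over time after 5 and 20 Gy, and 1 between doses at each time. Fits of only the groups compared gave 0 between doses at each time by limma, where 2 and 37 of all genes were called at 12 and 24 h. Between doses at 12 h, quantile normalization gave 6, rescaling to TPM 4 and a pseudocount of 0.1 gave 1. The pseudocount of 0.1 gave medians of -1.53 and -1.02 at 12 h, -1.75 and -1.56 at 24 h, and 0.62 between doses at 12 h. At 24 h after 20 Gy the median was -1.16 with quantile normalization and -1.44 after rescaling. Apart from the reversals above, the causes were not tested.

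Precision is limited by 3 libraries a group, no unexposed culture at 24 h and values without counts. Cdc6 rested on 4.0 read equivalents in 1 library, and Gins4 was listed at 0 in 2 libraries, for which the cause was not tested.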
